A study of Rattus norvegicus with 9 samples.

Results

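The genes described here encode 5 isoforms of protein kinase C (Prkca, Prkcb, Prkcd, Prkce and Prkcz) and the MAP kinases ERK1 (Mapk3) and ERK5 (Mapk7). They were chosen by name, with earlier results of these data known. All probe sets whose only gene symbol in the platform annotation was 1 of these 7 were taken. This found 6 of the 7 genes, out of 14217 genes that had a probe set named for them alone. Together they had 8 of the 31042 probe sets of the array that were not controls, with 3 probe sets for Prkcb and 1 for each of the others. Mapk3 was not analysed here. The cells were freshly isolated from the zona glomerulosa of the rat adrenal, the outer cortical layer that secretes aldosterone, and were kept for 2 h at 37 °C in DMEM:F12 medium with bovine serum albumin. Control tubes had no further addition, Ang II tubes received 100 nM angiotensin II, and potassium tubes were stimulated with 16 mM potassium. Each of 3 independent cell preparations supplied 1 tube per group, so each group held 3 arrays and there were 9 in all. The labels used here give no strain, sex or age and no number of animals per preparation.

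Angiotensin II binds a receptor coupled to Gq, which activates phospholipase C. The enzyme releases inositol trisphosphate, which mobilises calcium, and diacylglycerol, which recruits protein kinase C to the membrane. Raised potassium acts in a different way, by depolarising the cell and opening voltage-gated calcium channels. The conventional isoforms, encoded by Prkca and Prkcb, need calcium and diacylglycerol, those encoded by Prkcd and Prkce need diacylglycerol but not calcium, and the atypical isoform encoded by Prkcz needs neither. MAP kinases are the last step of kinase cascades, and ERK5 is activated by the kinase encoded by Map2k5 and phosphorylates transcription factors of the Mef2 family. These kinases are regulated largely after translation, and the arrays measured transcripts only.

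Both genes with a change that passed the test in any comparison, Prkcd and Mapk7, are introduced by the sequence before their annotated start, since they were lower in the same group of arrays. Each window holds the 250 bases before the start in RefSeq annotation of rat build GRCr8, read along the gene from 5′ to 3′. That of Prkcd lies at chr16:5805840-5806089 on the minus strand and that of Mapk7 at chr10:46674835-46675084 on the minus strand. Capitals mark the GC box GGGCGG or its reverse complement.
Prkcd: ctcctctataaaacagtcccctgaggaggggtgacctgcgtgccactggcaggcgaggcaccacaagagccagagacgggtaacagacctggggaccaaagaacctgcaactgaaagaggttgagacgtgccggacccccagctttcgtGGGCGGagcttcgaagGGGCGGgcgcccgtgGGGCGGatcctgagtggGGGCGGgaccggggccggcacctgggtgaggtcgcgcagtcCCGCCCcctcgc
Mapk7: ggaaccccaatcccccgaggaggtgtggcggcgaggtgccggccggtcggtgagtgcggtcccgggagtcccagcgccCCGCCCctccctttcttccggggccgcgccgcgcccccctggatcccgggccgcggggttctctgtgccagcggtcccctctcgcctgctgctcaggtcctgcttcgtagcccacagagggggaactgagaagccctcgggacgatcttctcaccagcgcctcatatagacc
The 7 motifs searched on both strands were the CRE TGACGTCA, its shorter core TGACG, the AP-1 site TGANTCA, the NBRE AAAGGTCA that Nr4a receptors bind, the Egr site GCGNGGGCG, the GC box and the E-box CACGTG. The CRE holds that core, and the Egr site and the GC box can overlap. Of these, the Prkcd window held only GC boxes, 5 of them, and the Mapk7 window only 1 GC box. Among 33469 windows of the same length, 30.5% held at least 1 GC box and 1.72% held 5 or more. The 7 motifs were found in 1.59%, 18.2%, 6.34%, 1.24%, 4.29%, 30.5% and 5.59% of these windows, in the order given. The windows of Prkcd and Mapk7 were 67.6% and 71.2% G or C, and these shares are not matched for base composition. Windows were found for 5 of the 7 genes. That of Prkcz also held 5 GC boxes, that of Prkca 2 and that of Prkce 1, and Prkcz alone of the 5 had an Egr site, which overlaps its GC boxes. A match is a run of letters and no measured binding site.

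Signals are linear array units as deposited, and their trimmed mean was 500.2 on each of the 9 arrays. The array medians still differed, from 128.0 to 172.9. The test took in the 18625 probe sets with a mean signal above 87.1, the 40th percentile of all. Of the 8 probe sets 6 were tested, 1 for each of the 6 genes. Those of Prkcz (mean signal 99.9), Prkca (99.8) and Mapk7 (115.8) lay little above that limit. Changes are log2 fold changes of signal + 16 with their standard error (SE), from a limma model with the preparation as a block, and adjusted p-values are Benjamini-Hochberg values over the 18625 probe sets. Adding 16 makes the changes of dim probe sets look smaller, and with 3 arrays per group the precision is limited.

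The labelled cell type was checked by its markers. Of 10 markers of glomerulosa and steroid-making cells 9 had a probe set, all 9 above the limit, and their summed signal lay between 109113 and 118989 in controls, 113774 and 119393 after Ang II and 113981 and 123409 after potassium. Cyp11b2, the aldosterone synthase gene, was not analysed here. Other cells were represented too. Of the markers with a probe set, 3 of 3 of the zona fasciculata, 5 of 5 of the medulla, 4 of 5 of endothelium, 7 of 9 of leukocytes and 6 of 6 of fibroblasts and smooth muscle were above the limit. The fasciculata markers had a summed signal of 45727 to 54705 in controls. The first list takes in genes of steroid-making cells in general, so this check does not tell glomerulosa from fasciculata cells. After potassium no marker of these 5 lists was called (limma, adjusted p under 0.05), while Star, the cholesterol carrier gene among the glomerulosa markers, rose (0.34 ± 0.06, adjusted p = 0.0040). After Ang II Star (0.29 ± 0.06, adjusted p = 0.023) and the smooth muscle marker Acta2 (0.40 ± 0.10, adjusted p = 0.049) rose, and no marker was called between the stimuli. Each group is a mixture, and fewer cells of a type and less RNA per cell cannot be told apart.

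Ang II tubes were first set against control tubes, to see whether the hormone changed these transcripts within 2 h. None of the 6 tested genes passed an adjusted p of 0.05, against 2.17% of the 18625 probe sets, and 1 of the 6 had an unadjusted limma p under 0.05, as had 14.5% of all. The groups did not overlap for 1 of the 6, Prkcd, against 15.0% of all tested probe sets. The median log2 fold change was -0.20 for the 6 genes and -0.03 for all tested probe sets.

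Potassium tubes were then set against the same controls. Prkcd and Mapk7 fell, and none of the 6 was called as higher. That is 2 of 6 called, against 5.39% of all tested probe sets called in either direction and 2.59% called as lower. The same 2 genes were those whose groups did not overlap, against 17.6% of all tested probe sets. The median log2 fold change was -0.38 for the 6 genes and -0.02 for all. In the direct comparison of Ang II with potassium, 2 of 6 genes were called and both were higher after Ang II, again Prkcd and Mapk7, against 4.79% called and 3.10% called as higher among all tested probe sets. Groups did not overlap for 2 of 6, against 18.7%. Ang II and potassium share the control arrays, and the direct comparison reuses arrays of both, so the 3 comparisons are not independent. The genes were also chosen with earlier results of these data known, so the shares describe them and are no test.

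**Figure D1:**
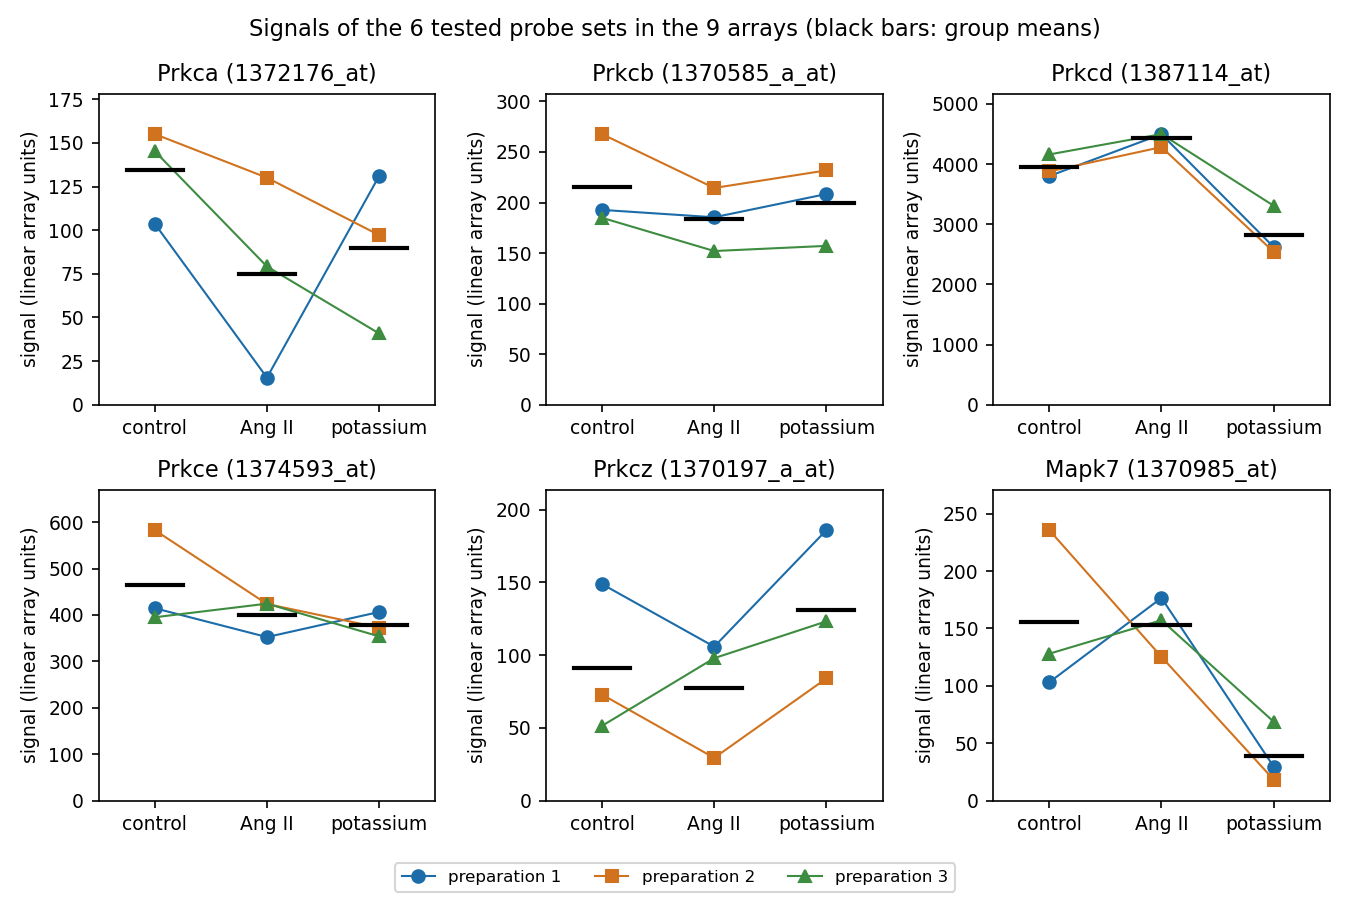
Signal in linear array units (vertical axes, starting at 0) of the 6 tested probe sets in control, Ang II and potassium tubes, with 1 line and symbol per cell preparation and black bars at the group means. For Prkcd and Mapk7 all 3 potassium signals lie below the controls and the Ang II signals, while the groups of Prkca, Prkcb, Prkce and Prkcz overlap in each comparison.

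Prkcd encodes protein kinase C delta, which diacylglycerol activates without calcium. Its probe set, 1387114_at, had control signals of 3799.9, 3876.9 and 4159.0 in preparations 1, 2 and 3. After potassium they were 2620.1, 2540.2 and 3306.3. Every potassium signal was below every control signal, and the mean was 71.5% of the control mean (2822.2 ± 421.1 against 3945.3 ± 189.0, SD, n = 3). The fitted log2 fold change was -0.49 ± 0.08 (SE, 95% interval -0.66 to -0.32), with an adjusted p of 0.0012, and the decrease was seen in 3 of 3 preparations at -0.53, -0.61 and -0.33. The call held with each array or preparation left out, with values from -0.58 to -0.43 and adjusted p-values up to 0.039. It ended when each array was scaled to a common median of all probe sets (-0.37, adjusted p = 0.060), a scaling that moved the median log2 fold change of all tested probe sets from -0.02 to 0.10, and without a trend of variance with signal (adjusted p = 0.091).

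After Ang II the Prkcd signals were 4495.2, 4281.4 and 4497.5, all above the highest control. The difference was small, at 0.17 ± 0.08 on the log2 scale (95% interval 0.00 to 0.33), and was seen in 3 of 3 preparations. It did not pass the test over all probe sets (limma, adjusted p = 0.35), while its unadjusted limma p was 0.0497. Between the stimuli Prkcd was 1.58-fold higher after Ang II (log2 fold change 0.66 ± 0.08, adjusted p = 0.00011), with differences of 0.78, 0.75 and 0.44 in preparations 1, 2 and 3. By its p it ranked 84 among the 18625 probe sets. The call ended only without the variance trend (adjusted p = 0.052) among the 21 alternative settings.

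Leukocytes also express Prkcd, and the summed signal of the 9 leukocyte markers was 10164 to 13403 in controls, 10712 to 13862 after Ang II and 9370 to 12070 after potassium. These ranges overlap, but the mean after potassium was below the control mean for 9 of 9 markers, at 62.3% to 93.9% of it with a median of 89.0%, where Prkcd stood at 71.5%. The sum, most of which is Cd74, was 92.2%, 90.1% and 87.4% of the control in preparations 1, 2 and 3. After Ang II 7 of the 9 means were below the control mean. Set against potassium, 5 of the 9 means were higher after Ang II and 4 lower. The sum after Ang II was 114.3%, 114.8% and 106.1% of that after potassium in preparations 1, 2 and 3. None of the 7 tested markers was called in any comparison, and their fitted log2 fold changes after potassium ran from -0.31 (Csf1r) to 0.00, against -0.49 for Prkcd. Cd163 and Cd79b lay under the limit for testing, with group means of 17.4 to 32.3. The part of such cells in the Prkcd result was not tested.

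Mapk7 encodes ERK5, a MAP kinase with a long carboxy-terminal extension that also acts in the nucleus. Its probe set, 1370985_at, gave control signals of 103.1, 235.7 and 128.0 and potassium signals of 29.7, 18.3 and 68.8. All 3 potassium signals lay below the lowest control and below 87.1, in the dim range of the array, where the files do not tell signal from background. The filter used the mean over all 9 arrays (115.8), which passed 87.1 only through the control and Ang II arrays. From control to potassium the group mean fell from 155.6 ± 70.5 to 38.9 ± 26.5 (SD, n = 3). The fitted log2 fold change was -1.67 ± 0.38 (95% interval -2.49 to -0.86, limma, adjusted p = 0.018), and without a filter the call remained (0.037). The size depended on the preparation, with -1.38, -2.87 and -0.76 in preparations 1, 2 and 3, and on the constant added to the signal, with -2.09 at 1 and -1.08 at 64, both still called. In limma's test it was no longer called without control replicate 2 (-1.15, adjusted p = 0.12), potassium replicate 1 (-1.66, 0.075), potassium replicate 2 (-1.29, 0.098), preparation 1 (-1.82, 0.096) or preparation 2 (-1.07, 0.14), or without the variance trend (0.11).

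After Ang II the Mapk7 signals were 176.6, 125.3 and 157.2, within the range of the controls. The log2 fold change of 0.04 ± 0.38 had a 95% interval from -0.77 to 0.86 (limma, adjusted p = 0.97), so changes of that size in either direction lay within it. The interval is not adjusted for the number of probe sets, so a change beyond its ends could also have gone uncalled. Against potassium the signal after Ang II was higher by 1.72 ± 0.38 on the log2 scale (adjusted p = 0.016), with differences of 2.08, 2.04 and 1.03 in the 3 preparations. This call ended without Ang II replicate 1 (1.46, adjusted p = 0.15), Ang II replicate 2 (1.85, 0.051), Ang II replicate 3 (1.83, 0.057), potassium replicate 1 (1.70, 0.074), potassium replicate 2 (1.33, 0.088) or preparation 1 (1.54, 0.21), or without the variance trend (0.12). The constant added mattered here too, with 2.14 at 1 and 1.10 at 64. Without a filter this call remained (limma, adjusted p = 0.033).

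**Figure D2:**
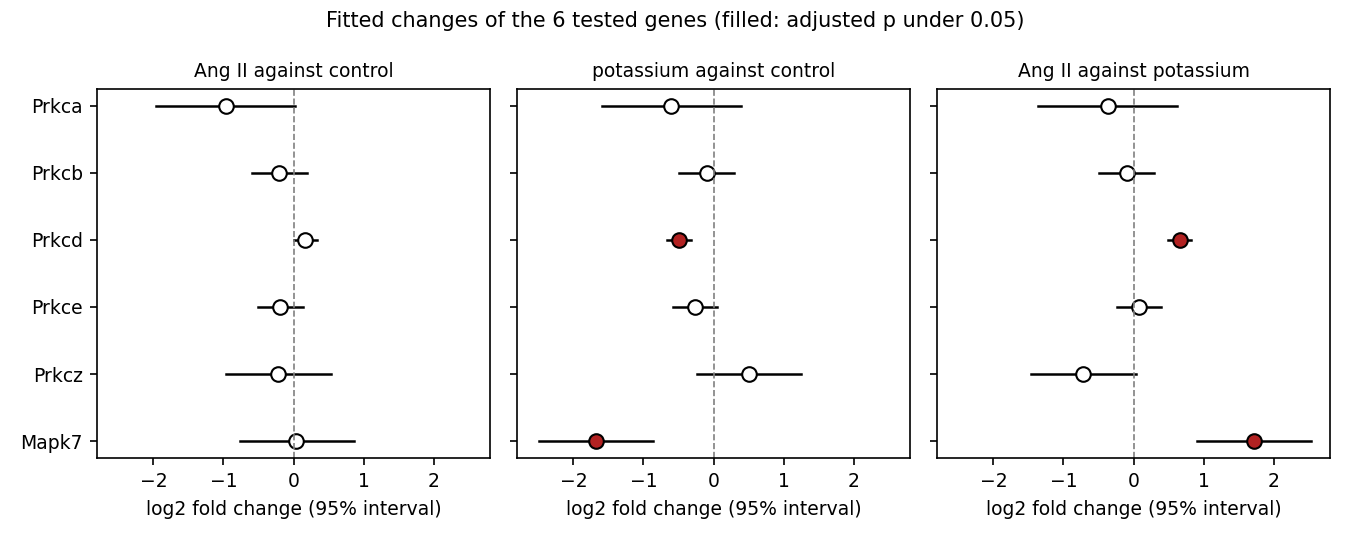
Log2 fold change (horizontal axes, points) with 95% intervals (lines) of the 6 tested genes in the 3 comparisons, filled where the adjusted p was under 0.05. Prkcd and Mapk7 are filled in both comparisons with potassium, at -0.49 and -1.67 against control and 0.66 and 1.72 for Ang II against potassium, and none is filled for Ang II against control.

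**Figure D3:**
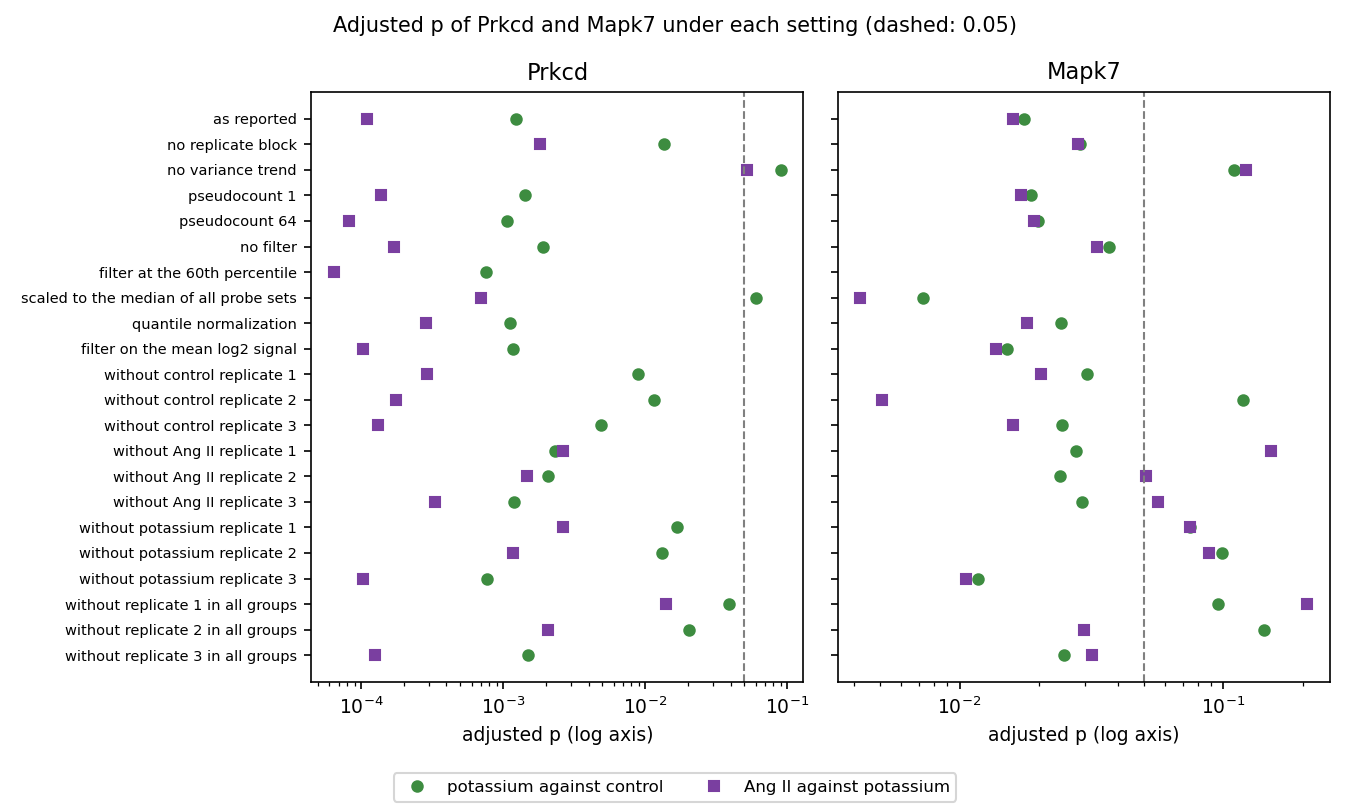
Adjusted p (log axis) of Prkcd and Mapk7 for potassium against control (circles) and Ang II against potassium (squares) as reported and under each alternative setting, with a dashed line at 0.05. Prkcd passes 0.05 to the right in 2 settings against control and 1 against Ang II, Mapk7 in 6 and 7, and Mapk7 was not tested with the filter at the 60th percentile.

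The conventional isoforms showed no change that passed the test. Prkca, which encodes protein kinase C alpha, had a probe set (1372176_at) with signals of 103.7, 155.1 and 145.3 in controls, 15.5, 130.1 and 79.2 after Ang II and 131.1, 97.2 and 40.8 after potassium. The groups overlap, and the lowest signal of all 9 arrays is the Ang II tube of preparation 1. The log2 fold change after Ang II was -0.97 ± 0.46 (95% interval -1.96 to 0.02, adjusted p = 0.36), lower in 3 of 3 preparations, and -0.27 without Ang II replicate 1. After potassium it was -0.60 ± 0.46 (-1.59 to 0.39, adjusted p = 0.54), with -1.29 without potassium replicate 1 and -0.096 without potassium replicate 3. These intervals are wide, so that a fall of over 2-fold or none at all lay within both.

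Prkcb encodes protein kinase C beta, which is best known from lymphocytes and neurons. The 1 tested of its 3 probe sets, 1370585_a_at, had signals of 192.7, 267.7 and 184.9 in controls, 185.4, 214.4 and 152.0 after Ang II and 208.4, 231.8 and 157.1 after potassium. Preparation 2 gave the highest signal in every group, and the 3 groups overlap. Its log2 fold change was -0.20 ± 0.18 after Ang II (95% interval -0.59 to 0.19, adjusted p = 0.68) and -0.10 ± 0.18 after potassium (-0.49 to 0.29, adjusted p = 0.82). The other probe sets of Prkcb were dim, with signals of 3.5 to 23.8 for 1368240_a_at and 2.2 to 27.1 for 1397189_at over the 9 arrays, and both lay under the limit for testing. The suffix _a_at marks probe sets that can detect several transcripts of 1 gene, and the splice form that each one reads is not given in the annotation used here.

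Prkce encodes protein kinase C epsilon, the second isoform here that responds to diacylglycerol alone. Its probe set, 1374593_at, had signals of 414.6, 582.9 and 395.1 in controls, 352.4, 423.7 and 424.4 after Ang II and 406.5, 372.7 and 353.9 after potassium. The control of preparation 2 stood above the other 8 arrays. The log2 fold change was -0.19 ± 0.15 after Ang II (95% interval -0.51 to 0.13, adjusted p = 0.62) and -0.27 ± 0.15 after potassium (-0.58 to 0.05, adjusted p = 0.36). Without control replicate 2 these values were -0.038 and -0.12. In the direct comparison of the stimuli it was 0.08 ± 0.15 (-0.24 to 0.39), against 0.66 ± 0.08 for Prkcd. Whether these genes differed from each other was not tested.

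Prkcz encodes the atypical isoform zeta. Its probe set, 1370197_a_at, had signals of 148.8, 72.9 and 51.4 in controls, 105.8, 29.4 and 97.9 after Ang II and 185.9, 84.0 and 123.2 after potassium. Within each preparation the potassium tube had the highest of the 3 signals, but the groups overlap, since the controls alone ran from 51.4 to 148.8. The log2 fold change was 0.50 ± 0.35 after potassium (95% interval -0.24 to 1.25, adjusted p = 0.48) and -0.22 ± 0.35 after Ang II (-0.96 to 0.53, adjusted p = 0.84). The potassium value was 0.12 without control replicate 3 and 0.77 without control replicate 2. Ang II against potassium gave -0.72 ± 0.35 (-1.46 to 0.03, adjusted p = 0.33), lower in 3 of 3 preparations.

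Over the 9 arrays the log2 signals of Prkcd and Mapk7 had a Pearson correlation of 0.92, which describes arrays that share groups and preparations. Both were called as lower in the same potassium arrays, so this value follows in part from their calls and is no separate evidence. The other 14 pairs of the 6 tested genes had correlations from -0.45 to 0.63. The 3 genes whose signals followed Prkcd most closely over the 9 arrays were Pum3 (r = 0.978), Sdc1 (0.974), which encodes the cell-surface proteoglycan syndecan 1, and Wdr37 (0.969). The mean signal of Sdc1 was 826.9 ± 87.5 in controls, 1193 ± 80.9 after Ang II and 384.9 ± 83.5 after potassium (SD, n = 3). For Mapk7 they were Nop2 (0.977), a nucleolar RNA methyltransferase gene, Aldh18a1 (0.967), an enzyme gene of proline synthesis, and Man1c1 (0.955). That of Aldh18a1 was 661.1 ± 77.5, 691.9 ± 24.5 and 451.4 ± 50.3 in the same order. These genes were picked as the highest correlations among all tested probe sets with 1 gene symbol over the same arrays, so their lower levels after potassium follow from the choice and no test is given.

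Other genes of the pathways were taken from 7 lists of 127 genes, of which 101 had a tested probe set. After Ang II 3 of the 101 were called as higher and none as lower, and after potassium 5 as higher and 3 as lower. Between the stimuli 6 were called as higher and 1 as lower after Ang II. That is 2.97%, 7.92% and 6.93% of the 101, beside 2.17%, 5.39% and 4.79% of all tested probe sets. The lists too were chosen with earlier results of these data known, so these shares are a description. Without the preparation as a block the calls were 2, 3 and 4 in place of 3, 8 and 7.

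Upstream of the kinases, none of 18 genes of Gq, phospholipase C and diacylglycerol passed limma's test in any comparison. With unadjusted p-values under 0.05, limma gave 1 higher and 2 lower after Ang II and none after potassium, beside 14.5% and 18.8% of all tested probe sets, and the medians were -0.01 and 0.02. The unadjusted counts of the lists that follow are read against the same shares. Among 15 genes of Ras and scaffold proteins of the MAP kinase cascades there was no call either. There the unadjusted limma p was under 0.05 for 1 higher and 1 lower gene after Ang II. After potassium it was so for 1 higher and 2 lower genes (medians -0.01 after Ang II and 0.00 after potassium). Of the 7 other tested genes of protein kinase C and related kinases none passed after Ang II, none with an unadjusted limma p under 0.05 either, and Prkci, the second atypical isoform, rose after potassium from 1022 ± 144 to 1333 ± 219 (0.38 ± 0.09, adjusted p = 0.025). That call ended in 9 of 22 settings, among them without the preparation block (adjusted p = 0.24). Of 7 other MAP kinase genes none passed after Ang II, with 2 higher and 1 lower by unadjusted limma p under 0.05, and Nlk rose after potassium (0.33 ± 0.09, adjusted p = 0.044). In 16 of 22 settings Nlk was no longer called, among them the mean of its probe sets (adjusted p = 0.13), and none of its 3 other tested probe sets was called. The lists' medians lay between -0.06 and 0.10 in both comparisons with control.

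The MAP kinase kinases and the kinases above them held the largest change of these lists after Ang II. Map3k4, which encodes a kinase that activates MAP kinase kinases of the p38 and JNK cascades, rose from 912.9 ± 48.9 to 1796 ± 106 (SD, n = 3; 0.96 ± 0.10, adjusted p = 5e-05) and was the only 1 of 14 to pass. After potassium Map3k4 rose by 0.50 ± 0.10 (adjusted p = 0.0073) and Map2k3, an activator of p38, fell (-0.29 ± 0.07, adjusted p = 0.022). Map2k3 was higher after Ang II than after potassium, at 9909 ± 538 against 7022 ± 464 (0.50 ± 0.07, adjusted p = 0.00043), as were Map3k4 (0.46 ± 0.10, adjusted p = 0.013) and Map2k1, the ERK1 and ERK2 activator (0.35 ± 0.08, adjusted p = 0.017). The Map3k4 call after Ang II ended in 1 of 22 settings, without the variance trend (adjusted p = 0.051). After potassium it ended in 4, without the trend (0.11), potassium replicate 1 (0.070), preparation 1 (0.10) or preparation 3 (0.055), and between the stimuli in 4, without the trend (0.15), Ang II replicate 2 (0.12), potassium replicate 2 (0.096) or preparation 2 (0.15). The fall of Map2k3 ended in 10 settings and the difference of Map2k1 in 12. Map2k3 between the stimuli lost its call in 1. Map2k5, the direct activator of ERK5 and named here for that role, had log2 fold changes of -0.05 ± 0.15 after Ang II and -0.01 ± 0.15 after potassium, and neither passed (adjusted p = 0.92 and 0.99).

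Among 18 adaptors and substrates of protein kinase C only Akap12, which encodes a scaffold and substrate of these kinases, passed after Ang II (0.30 ± 0.07, adjusted p = 0.031). In 12 of 22 settings Akap12 was no longer called, and its 1 other tested probe set was not called after Ang II. None passed after potassium, where 1 was higher with an unadjusted limma p under 0.05. Among 22 kinases and factors downstream of ERK and Mapk7 the transcription factor gene Klf4 rose after both stimuli, by 0.52 ± 0.08 after Ang II and 1.00 ± 0.08 after potassium (adjusted p = 0.0014 and 1e-06). After potassium Srf, the serum response factor gene, fell (-0.60 ± 0.09, adjusted p = 0.00062), as did Klf2 (-0.41 ± 0.08, adjusted p = 0.0061), and the kinase gene Sgk1 rose (0.31 ± 0.07, adjusted p = 0.013). The Sgk1 call ended in 7 of 22 settings, with adjusted p-values up to 0.16, that of Klf2 in 6 and that of Srf in 1, and that of Klf4 in none after potassium and in 1 after Ang II. The 1 other tested probe set of Srf had the same sign but was not called, either after potassium or between the stimuli. Of the 3 other tested probe sets of Klf2 1 had the opposite sign after potassium and none was called in the same direction there. With the mean of all its probe sets Klf2 was not called after potassium (adjusted p = 0.35) or between the stimuli (0.10). Klf2 and Klf4 are both genes that ERK5 signalling is known to raise, and after potassium their brightest probe sets were called in opposite directions. Whether ERK5 had a part in either change was not tested. Between the stimuli Srf (0.66 ± 0.09) and Klf2 (0.51 ± 0.08) were higher and Klf4 (-0.48 ± 0.08) lower after Ang II, and Ets2 was higher by 0.27 ± 0.06. Here the calls of Srf, Klf2, Klf4 and Ets2 ended in 1, 4, 2 and 13 settings.

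**Figure D4:**
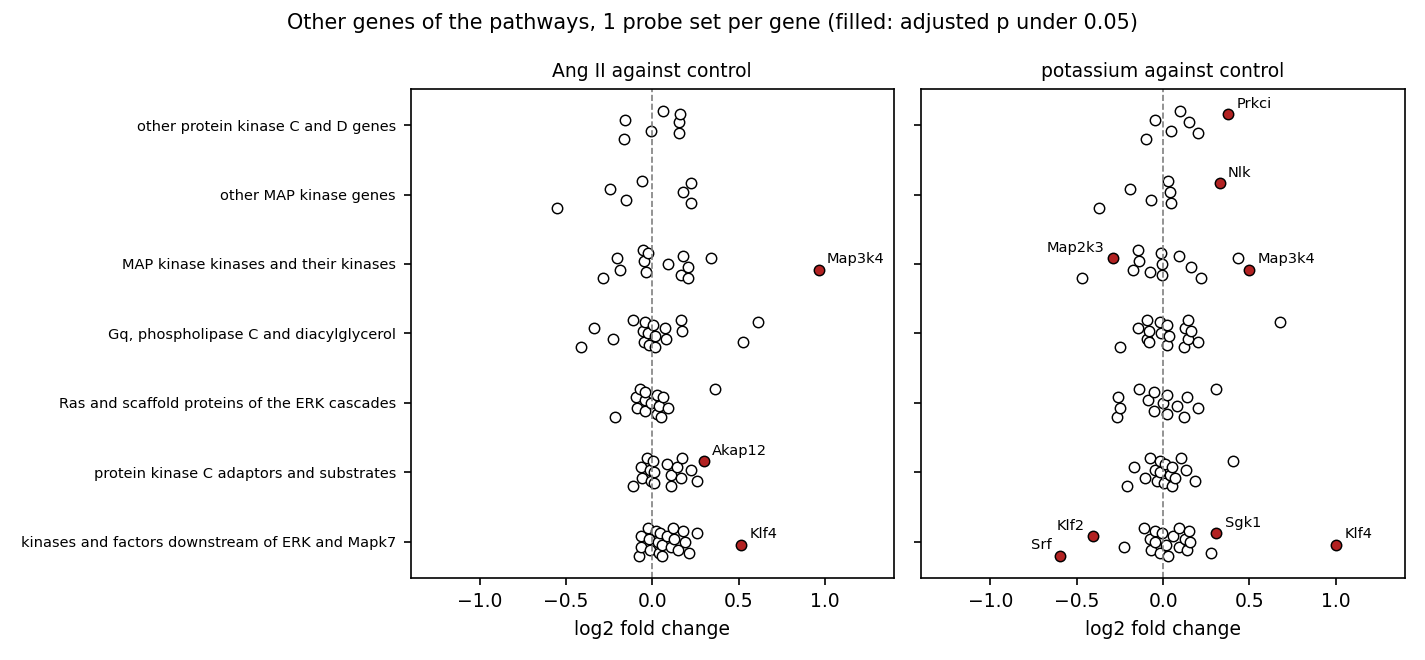
Log2 fold change (horizontal axes) of the 101 tested genes of the 7 lists after Ang II and after potassium against control, 1 point per gene at its brightest tested probe set, filled and named where the adjusted p was under 0.05 and spread vertically for legibility. The 3 filled points after Ang II are Map3k4, Akap12 and Klf4, and after potassium 5 lie above 0 and Map2k3, Klf2 and Srf below it.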

How the data were processed

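The authors deposited 1 linear intensity per probe set for each of 9 Affymetrix rat expression arrays, and the submitters' processing notes name GCOS, without a version. How background was corrected and probes were summarised is not given in the sources used here. Groups and preparation numbers came from the sample titles, and symbols were updated through Entrez identifiers of the GRCr8 gene table.

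Signals were transformed as log2(signal + 16) and fitted with limma 3.58.1 in R 4.3.3, with 3 groups, the preparation as a fixed block and a variance trend (4 residual degrees of freedom). All 9 pairs of arrays of 1 preparation had correlated deviations from their group means (0.11 to 0.27), against -0.21 to 0.04 between preparations. Deviations within a group cancel each other, so the second range depends on the first and is no independent comparison. The code was tested on simulated data. The design text also states that experiments were independent preparations.

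The members and gene lists were chosen with earlier results of these data known. Named were all member probe sets, up to 2 called genes per list and comparison with the smallest p (others are named to complete counts of called genes), and the 3 best correlated genes of each called member. Alternatives were other pseudocounts, filters, scalings and variance models, no block, and each array or preparation left out. Filtering on mean log2 signal was added after seeing the data.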

Additional observations from a re-analysis of the deposited data

How the results depend on the processing

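Of the 2 members called after potassium, 0 were called without a variance trend, 1 with a filter at the 60th percentile, where Mapk7 was not tested, and 1 when arrays were scaled to their overall median. For Ang II against potassium the 2 calls became 0 and 1 in the first and second of these. Leaving out an array or preparation gave 1 to 2 calls in both. Without the replicate block the members' calls stayed at 0, 2 and 2. Calls among the 101 pathway genes were 3 after Ang II, 8 after potassium and 7 between the stimuli. They became 0, 1 and 0 without a trend, 2, 3 and 4 without the block, and 5 for Ang II with median scaling, and leaving out arrays gave 2 to 8 for potassium and 3 to 8 between the stimuli. Signs turned only for uncalled values. Prkcb after potassium became 0.013 with median scaling. With single arrays left out, Mapk7 after Ang II ran from -0.24 to 0.56, Prkcz after Ang II from -0.59 to 0.077, and between the stimuli Prkca from -0.87 to 0.33 and Prkce from -0.039 to 0.21. With a whole preparation left out, Mapk7 became -0.28 without preparation 1 and -0.070 without 3, Prkcz 0.16 without 2, Prkca 0.56 without 1 and Prkce -0.010 without 3. Over all tested probe sets the calls were 404, 1004 and 893, but 193, 499 and 442 without the block, 32, 256 and 155 without a trend, and as few as 145, 446 and 270 with arrays left out. Median scaling turned 306 higher and 98 lower after Ang II into 424 and 30, and 521 and 483 after potassium into 719 and 180. Where no value shows the cause, it was not tested. Precision is limited by 3 arrays per group.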
